A study of Mus musculus with 4 samples.

Results

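Iron entry, storage, release and recycling were followed across 10 genes in ID8-P0 and ID8-PW2 mouse ovarian cancer cells. The 10 genes were chosen by name from the 23875 of the deposited table, with their fold changes and adjusted p-values in this comparison already known: Trf, Tfrc, Slc11a2, Fth1, Ftl1, Slc40a1, Hp, Hmox1, Ireb2 and Aco1. All 10 had a row, and all 10 had a mean level of at least 1 CPM (reads of a gene scaled to a common library total), as did 12214 genes in all. ID8-P0 is a C57BL/6 line of ovarian surface epithelial cells that transformed in culture, had not been passed through mice and carries GFP and luciferase. ID8-PW2 is 1 line recovered from peritoneal wall tumors after 2 passages of these cells through C57BL/6 mice. Each group had 2 libraries, and both lines were labelled wild type and kept for 24 h in suspension on poly-HEMA-coated plates before collection. The libraries of ID8-P0 shared lane 3, while those of ID8-PW2 came from lane 4 and lane 8, and the effects of lane and line cannot be told apart. With 1 passaged line, the comparison is one of lines.

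Iron circulates bound to transferrin, which the transferrin receptor carries into endosomes, where the metal is reduced and moved into the cytosol. Iron that is not used is stored in ferritin, a shell of heavy and light chains, or leaves the cell through ferroportin. Iron regulatory proteins adjust this balance by binding a short hairpin, the iron responsive element, in the untranslated regions (UTRs) of several of these mRNAs. Bound near the 5′ end, they hold back translation, and bound near the 3′ end, they protect the mRNA from decay. Tumor cells often take up much iron.

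The iron responsive elements of these genes are shown first, because they divide the genes into those under control at the 5′ end, at the 3′ end, or with no such element found. UTRs of GENCODE release M21 transcripts (GRCm38) were searched for a bulged C, 5 stem bases, the loop CAGTGN and 5 stem bases that pair with the first, on the strand of the transcript. Of 22527 coding genes, 0.138% held such an element in a 5′ UTR and 0.639% in a 3′ UTR, against 3 and 1 of the 10 iron genes. The element was already known in several of these genes, so this contrast was fixed by their choice and tests nothing. The capitals mark the loop, and each sequence holds 27 bases.
Fth1, 5′ UTR, chr19:9982733-9982759 (+): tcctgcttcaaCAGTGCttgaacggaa
Ftl1, 5′ UTR, chr7:45459780-45459806 (-): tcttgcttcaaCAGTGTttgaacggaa
Slc40a1, 5′ UTR, chr1:45925466-45925492 (-): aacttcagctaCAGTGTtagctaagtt
Tfrc, 3′ UTR, chr16:32631220-32631246 (+): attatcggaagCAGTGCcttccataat
Tfrc, 3′ UTR, chr16:32631599-32631625 (+): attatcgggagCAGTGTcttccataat
Tfrc, 3′ UTR, chr16:32631664-32631690 (+): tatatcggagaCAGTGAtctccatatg
Tfrc, 3′ UTR, chr16:32631711-32631737 (+): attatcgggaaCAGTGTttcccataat

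Slc11a2 had no fully paired match, and its 3′ UTR held 1 match with 4 of 5 stem pairs, a looser pattern that 4.47% of coding genes had in a 3′ UTR.
Slc11a2, 3′ UTR, chr15:100395154-100395180 (-): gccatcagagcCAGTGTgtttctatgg
Trf, Hp, Hmox1, Ireb2 and Aco1 had no match under either pattern. The deposited values are RNA levels, so control of translation through these elements was not measured.

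Fold changes are those of ID8-PW2 over ID8-P0 in the authors' deposited edgeR table, and a call needed an adjusted p below 0.01 (Benjamini-Hochberg over all genes listed) together with a fold change over 1.2 or under 0.83. By this rule, Trf, Tfrc and Slc40a1 were called higher and Hp and Slc11a2 lower, while Fth1, Ftl1, Hmox1, Ireb2 and Aco1 were not called. The counts were 3 higher and 2 lower of 10, where 14.4% of the 12214 genes were called higher, 11.7% lower and 26.2% in either direction. Over all 23875 genes the shares were 7.97%, 6.14% and 14.1%. As the choice was made with these results known, the values describe these libraries and test nothing. Their median log2 fold change was -0.06, beside 0.01 over the 12214 genes, and the range ran from -3.58 to 1.79. The 4 count columns of the table are named in a way that cannot be matched to a labelled library and were not used here, so no value can be given for each library. The level in each group was estimated by splitting the mean level according to the fold change, and it has no SD. The spread between duplicates is given as the biological coefficient of variation (BCV) that edgeR estimated, and an approximate 95% interval of each fold change was computed from the deposited fold change and p. In these bulk samples, fewer cells of a type and less RNA per cell cannot be told apart.

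**Figure D1:**
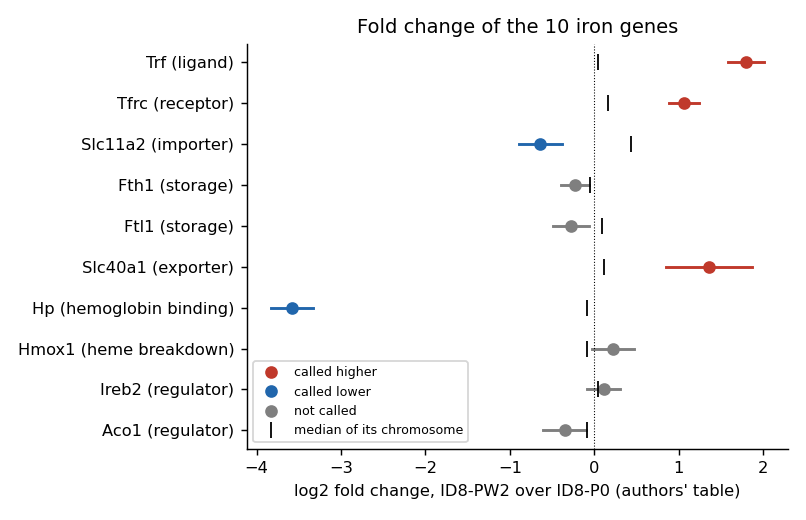
Log2 fold changes (ID8-PW2 relative to ID8-P0) of the 10 iron genes. Points are the deposited values, lines the approximate 95% interval computed from the fold change and p, and black ticks the median of the expressed genes (1 CPM or more) on the same chromosome; Hp lies at -3.58 and Trf at 1.79, and the intervals of Hmox1 and Ireb2 span 0.

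Trf encodes transferrin, the carrier of iron in extracellular fluid, made mostly by the liver. Its RNA rose from an estimated 1324 CPM in ID8-P0 to 4580 CPM in ID8-PW2, a fold change of 3.46 (approximate 95% interval 2.98 to 4.01, BCV 7.32%, adjusted p = 5.39e-58). Trf rose most of the 10 genes, and it was the most abundant of them in ID8-PW2 in CPM, while in ID8-P0 it stood beside Fth1 (1327 CPM). On the scale of CPM per kb of exon, on which genes can be compared, its mean level of 889 was ranked at 123 of the expressed genes with an annotated length. Its share of the summed CPM of the 10 genes went from 39.1% to 71.4%.

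Reads from much of Trf cannot be told apart from those of Gm20425, an overlapping coding gene on the same strand. Trf (ENSMUSG00000032554) lies on chromosome 9 from 103204001 to 103230444 on the minus strand, and Gm20425 starts within the same first exon and runs past its end. By GENCODE M21, the genes share 2108 exon bases, which are 63.5% of those of Trf and 69.6% of those of Gm20425. The table lists Gm20425 at 2813 CPM, 95.3% of the Trf level, with a fold change of 3.45. Whether reads of the shared exons were counted for both is not given in the sources used here, so the rows are not taken as separate observations. Past the overlap, 20.1 kb from the other side of Trf, 1300017J02Rik had 1.21 (adjusted p = 1.0, mean 2.17 CPM).

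**Figure D2:**
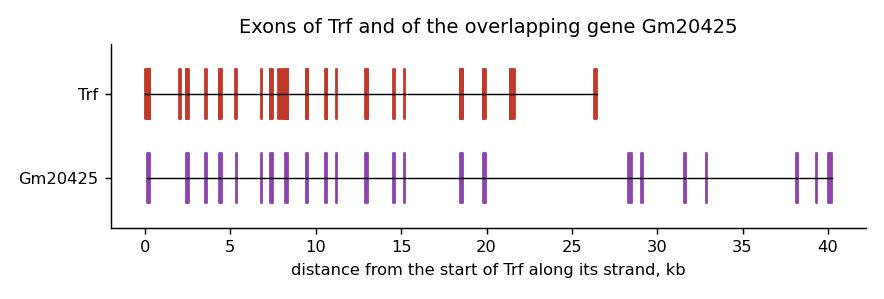
Exons of Trf and Gm20425, drawn to scale as distance in kb from the start of Trf along its strand (bars are exons of all annotated transcripts, lines the gene bodies). The genes share 2108 exon bases, and the last exons of Gm20425 lie beyond Trf.

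Tfrc encodes transferrin receptor 1, which brings transferrin into the cell. Its RNA rose from an estimated 130 to 270 CPM, a fold change of 2.08 (approximate 95% interval 1.84 to 2.36, BCV 5.92%, adjusted p = 1.12e-28). The gene (ENSMUSG00000022797) lies on chromosome 16 from 32608920 to 32632794, and its nearest expressed neighbours did not share the change: Pcyt1a had 1.15 (adjusted p = 0.222) and Tnk2 0.933 (adjusted p = 1.0). The ligand thus rose further than its receptor, and Trf per kb went from 19.0 to 31.6 times the level of Tfrc. Tfrc is also known as a target of hypoxia-inducible factors, and the authors count Trf among the targets of HIF1α too. Binding sites of these factors often hold the letters ACGTG, and no other form of the site was searched. RefSeq promoters (GRCm38.p6, a window around each start) were given for 5 of the 10 genes: Tfrc, Fth1, Ftl1, Ireb2 and Aco1. Tfrc alone of these 5 held ACGTG on either strand, as did 19.6% of all 32851 promoters. No promoter was given for Trf, Hp, Slc40a1, Slc11a2 and Hmox1, so Tfrc was the only called gene searched. The capitals mark the match in the Tfrc promoter, at chr16:32608882-32608911 (+).
Tfrc, promoter: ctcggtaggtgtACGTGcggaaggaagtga
The match is a description of the sequence, and binding was not measured.

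Slc11a2 encodes the divalent metal transporter that moves iron out of the endosome, the step after the receptor. It went the opposite way to Tfrc, from an estimated 41.8 CPM in ID8-P0 to 26.8 CPM in ID8-PW2, a fold change of 0.641 (approximate 95% interval 0.536 to 0.766, BCV 7.53%, adjusted p = 1.45e-05). The gene (ENSMUSG00000023030) lies on chromosome 15 from 100387898 to 100425072, a chromosome on which 233 of 485 expressed genes were called higher and 15 lower. Relative to the median of this chromosome, its log2 fold change was -1.07, against -0.64 as deposited. Its neighbours Mettl7a1 and Letmd1 had 1.55 (adjusted p = 0.0387) and 1.12 (adjusted p = 0.661). Both Tfrc and Slc11a2 had a match to the hairpin in the 3′ UTR, complete in the first and with a broken pair in the second. Their RNA levels moved apart. A match in any transcript of a gene was taken, while these levels are for the whole gene.

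Neither ferritin chain was called. Fth1, the heavy chain that oxidises iron as it enters the shell, had an estimated 1327 CPM in ID8-P0 and 1134 CPM in ID8-PW2, a fold change of 0.855 (approximate 95% interval 0.762 to 0.959, BCV 5.83%, adjusted p = 0.0419). Ftl1, the light chain, had 223 and 184 CPM, a fold change of 0.825 (approximate 95% interval 0.713 to 0.954, BCV 7.14%, adjusted p = 0.0499). Both values lay below 1, without passing 0.01. At a threshold of 0.05, Ftl1 would be called lower and Fth1 would not, as its fold change is above 0.83. The lower ends of the intervals leave room for 0.762 and 0.713. Fth1 (ENSMUSG00000024661) lies on chromosome 19 from 9982703 to 9985092 and Ftl1 (ENSMUSG00000050708) on chromosome 7 from 45457944 to 45459884. The small gene Gm22133 lies within the exons of Ftl1 and had 0.729 (adjusted p = 0.112) at 12.2 CPM. Ferritin genes have processed copies in the mouse genome, and how reads that fit several copies were counted is not given in the sources used here.

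Slc40a1 encodes ferroportin, the known exporter of iron from cells. By its mean over both lines it was the scarcest of the 10 genes, though in ID8-PW2 Hp was lower (12.1 CPM), and it had the second largest rise, from an estimated 5.14 to 13.2 CPM, a fold change of 2.57 (approximate 95% interval 1.8 to 3.65, adjusted p = 2.60e-06). Its BCV of 14.0% was the widest of the 10, and the median BCV of genes at a like mean level was 12.4%. The gene (ENSMUSG00000025993) lies on chromosome 1 from 45908070 to 45925594, between Wdr75, 84.5 kb away, which fell with 0.645 (adjusted p = 0.00301), and Dnah7b, 141 kb away, which rose with 13.0 (adjusted p = 1.63e-11). Per kb, Slc40a1 stood at 0.0969 times the level of Slc11a2 in ID8-P0 and 0.388 times in ID8-PW2. Fth1, Ftl1 and Slc40a1 share the hairpin in the 5′ UTR, and of these Slc40a1 alone was called. Macrophages, which recycle iron, express ferroportin. Among 8 macrophage markers, Cd68 rose with 5.44 and Csf1r with 28.9 (0.125 and 3.63 CPM, approximate 95% interval 11.2 to 75.1). The Csf1r estimate in ID8-P0 lies below the lowest mean level listed, so its fold change is of uncertain size. Cd14 had 0.869 (3.50 and 3.04 CPM, adjusted p = 1.0) and Itgam 0.841 (1.0 and 0.841 CPM, adjusted p = 1.0). The summed level of these markers went from 9.78 to 29.96 CPM, of which Cd68 made 4.02 and 21.9 CPM. Ptprc, Emr1, Cd163 and Lyz2 had means of 0.163 to 0.246 CPM, beside a lowest level of 0.163 CPM in the table. The part of such cells in the Slc40a1 value was not tested.

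**Figure D3:**
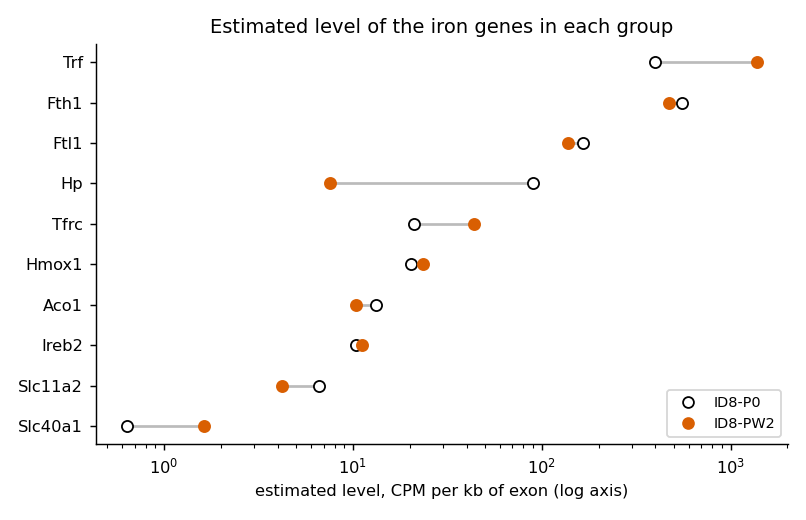
Estimated level of each iron gene in ID8-P0 (open circles) and ID8-PW2 (filled circles), in CPM per kb of exon on a log axis, ordered by the mean. Levels ran from 0.637 for Slc40a1 in ID8-P0 to 1380 for Trf in ID8-PW2, and Hp went from 90.2 to 7.57; no error can be given for these estimates, and that of Fth1 is understated because its annotated exons cover its whole 2.39 kb.

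Hp encodes haptoglobin, which binds free hemoglobin and is made by the liver in the acute phase response. Hp fell from an estimated 145 CPM in ID8-P0 to 12.1 CPM in ID8-PW2. The fold change was 0.0839 (approximate 95% interval 0.0706 to 0.0996), so the level was 11.9 times lower, and the BCV was 6.72% (adjusted p = 7.48e-172). Among the 12214 genes, 14 called lower had a fold change as small as this, Hp included. Per kb, Hp passed from 4.45 times the level of Hmox1 in ID8-P0 to 0.320 times in ID8-PW2, and Trf from 4.42 to 182 times the level of Hp. The gene (ENSMUSG00000031722) lies on chromosome 8 from 109575130 to 109579172. The genes beside it did not share the fall: Txnl4b, 1.08 kb away, had 1.21 (adjusted p = 0.905, mean 3.58 CPM) and Dhodh, 12.2 kb away, 1.02 (adjusted p = 1.0). Trf and Hp are both secreted proteins of the liver, and they moved in opposite directions. Of 6 hepatocyte markers in the table, Ahsg alone averaged over 1 CPM. Alb stood at the lowest level of 0.163 CPM, and Apoa1, Ttr, Serpina1a and Fga averaged 0.183 to 0.380 CPM and were not called. Ahsg, a secreted glycoprotein, rose from 9.71 to 39.7 CPM with 4.09 (adjusted p = 1.81e-27).

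Hmox1 encodes heme oxygenase 1, the inducible enzyme that opens heme and frees its iron. It was not called, with an estimated 35.5 CPM in ID8-P0, 41.4 CPM in ID8-PW2 and a fold change of 1.17 (approximate 95% interval 0.980 to 1.39, BCV 7.39%, adjusted p = 0.284). The interval leaves room for a rise of up to 1.39 times. Hmox1 (ENSMUSG00000005413) shares chromosome 8 with Hp and lies from 75093591 to 75100596. Its constitutive relative Hmox2 had 1.06 (approximate 95% interval 0.859 to 1.32, adjusted p = 1.0). Of the erythroid markers, 6 had a row and 0 reached 1 CPM, and Hbb-bs and Alas2 stood at the lowest level, and the summed level of the 6 was 0.996 CPM in ID8-P0 and 1.68 CPM in ID8-PW2.

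Neither gene of the iron regulatory proteins was called. Aco1 encodes iron regulatory protein 1, which is an aconitase while it holds an iron-sulfur cluster, and had 59.3 and 46.5 CPM, a fold change of 0.784 (approximate 95% interval 0.656 to 0.936, BCV 8.12%, adjusted p = 0.0393). Ireb2 encodes iron regulatory protein 2, which is degraded when iron is plentiful, and had 98.2 and 106 CPM, a fold change of 1.08 (approximate 95% interval 0.942 to 1.23, BCV 6.22%, adjusted p = 0.672). Per kb, Ireb2 stood at 0.786 times the level of Aco1 in ID8-P0 and 1.08 times in ID8-PW2, an order that changed within values that were not called. Aco1 (ENSMUSG00000028405) lies on chromosome 4 from 40143081 to 40198338 and Ireb2 (ENSMUSG00000032293) on chromosome 9 from 54863755 to 54912534. Fbxl5, which marks iron regulatory protein 2 for degradation, had 1.03 (approximate 95% interval 0.883 to 1.2, adjusted p = 1.0).

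**Figure D4:**
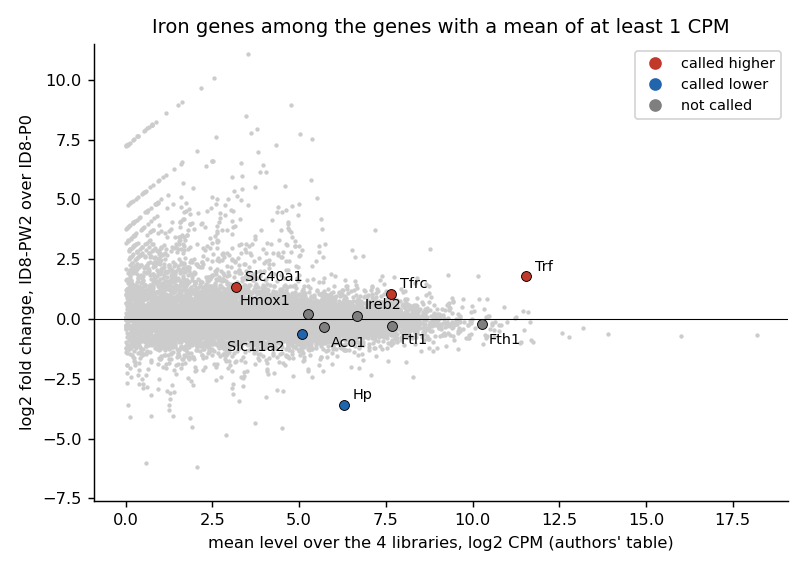
Mean level (log2 CPM) against log2 fold change for the 12214 expressed genes (grey, 1 CPM or more), with the 10 iron genes named. Trf lies to the right with 1.79, Hp lies below the cloud at -3.58, and the ferritin genes and Hmox1 lie within it.

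Further genes of iron and heme metabolism were read from 5 lists, of which 69 genes averaged 1 CPM or more. Of these, 11 were called higher and 8 lower, beside 14.4% and 11.7% of all genes at that level. The same shares stand beside the counts of each list below. At a fold change over 2 or under 0.5, 2 were higher, Steap3 and Mfsd7c, and 0 lower. An unadjusted edgeR p below 0.05 was met by 16 on the higher side and 14 on the lower side. Shares of all genes at these other thresholds were not computed, so these counts have no background beside them.

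In iron uptake, release and routing, 2 of 17 genes rose and 4 fell, with a median log2 fold change of -0.14. Steap3, a ferrireductase that prepares iron for Slc11a2 in the endosome, rose from an estimated 1.06 to 8.41 CPM with a fold change of 7.93 (approximate 95% interval 4.43 to 14.2, adjusted p = 9.10e-11). Pcbp2, an RNA-binding protein that also chaperones iron, rose with 1.38 (adjusted p = 9.83e-07), and its log2 fold change of 0.47 lay near the median of its chromosome 15 (0.43). Cp, the ferroxidase ceruloplasmin that works with ferroportin, fell from 408 to 242 CPM with 0.593 (adjusted p = 3.71e-16). Slc39a14, an importer of iron that is not bound to transferrin, fell with 0.566 (adjusted p = 4.02e-06), Mcoln1, a cation channel of lysosomes, with 0.589 (adjusted p = 1.17e-06), and Steap1 with 0.557 (adjusted p = 0.00129). So Tfrc and Steap3 were higher, while the importer Slc39a14 and the endosomal transporter Slc11a2 were lower. Slc39a8, of the same family as Slc39a14, had 1.67 (3.76 and 6.27 CPM, adjusted p = 0.0460) and was not called. Pcbp1 had 0.904 (adjusted p = 0.371) and was not called. Steap2, of the same family as Steap3 and with a higher mean of 96.5 CPM, had 1.003 (adjusted p = 1.0) and was not called. Lcn2, a siderophore-binding protein named after its value was seen, had 0.265 from a mean of 1.04 CPM and was not called (adjusted p = 0.0208).

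In heme synthesis, 4 of 8 genes rose and 0 fell, beside 14.4% called higher and 11.7% called lower among the 12214 genes. With so few genes, 0 lower is near that share. At an unadjusted edgeR p below 0.05, 0 were lower as well, a count with no background here. The median log2 fold change was 0.43. The risen genes were Alad with 1.72 (adjusted p = 5.52e-11), Uros with 1.95 (adjusted p = 0.00330), Cpox with 1.82 (adjusted p = 3.00e-05) and Ppox with 1.85 (adjusted p = 5.14e-06). Alad and Uros act early in the pathway and Cpox and Ppox near its end. Alas1, which starts the pathway outside the red cell lineage, had 0.994 (approximate 95% interval 0.835 to 1.18, adjusted p = 1.0), and Urod had 1.03 (adjusted p = 1.0). Fech, which inserts the iron and was named for that step, had 1.06 (adjusted p = 1.0).

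In heme and hemoglobin handling, 2 of 10 genes rose and 3 fell, with a median log2 fold change of -0.28. Lrp1, the receptor for heme bound to hemopexin and for many other ligands, fell from 1211 to 700.0 CPM with 0.578 (adjusted p = 1.69e-18). Slc48a1, which moves heme out of lysosomes, rose with 1.63 (adjusted p = 3.18e-12). Its log2 fold change of 0.71 stood beside a median of 0.43 on its chromosome 15. Mfsd7c, the older symbol of Flvcr2, rose with 5.18 from an estimated 0.973 CPM (adjusted p = 5.53e-08), and its relative Mfsd7b, the older symbol of Flvcr1, fell with 0.613 (adjusted p = 0.00518). Slc46a1, a folate transporter that can carry heme, fell with 0.749 (adjusted p = 0.00536). Cd163, the macrophage receptor for haptoglobin bound to hemoglobin, had a mean of 0.225 CPM. Abcg2 had 0.750 (adjusted p = 0.0886) and was not called.

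Among regulators, 1 of 7 genes rose and 1 fell. Epas1, the HIF-2α subunit, rose with 1.55 (adjusted p = 2.98e-07), and Nfe2l2, the NRF2 factor that drives Hmox1 and ferritin genes, fell with 0.754 (adjusted p = 0.000158). Bach1, which represses Hmox1 until it binds heme, had 1.28 (adjusted p = 0.0137), and Neo1 had 1.05 (adjusted p = 0.982). Hamp2, of the hepcidin family, stood at the lowest level of the table. In iron-sulfur cluster assembly, 2 of 27 genes rose, Fam96b with 1.89 (adjusted p = 0.000244) and Fdx1 with 1.62 (adjusted p = 0.00952), and 0 fell (3 at an unadjusted p of 0.05 in edgeR). The median log2 fold change of that list was -0.10, Hspa9 had 1.05 (adjusted p = 0.866) and Mms19 1.04 (adjusted p = 1.0). Cluster assembly thus held the smallest share of called genes of the 5 lists.

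**Figure D5:**
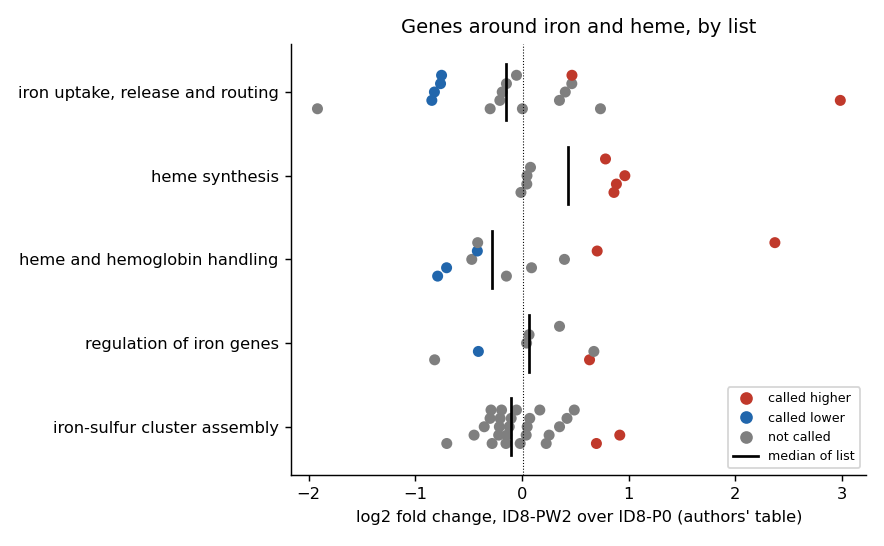
Log2 fold changes (ID8-PW2 relative to ID8-P0) of the 69 expressed genes of 5 lists; each point is a gene, the black bar the median of its list and the dotted line the median of all 12214 genes. Heme synthesis has its median at 0.43, and 0 genes were called lower there and in iron-sulfur cluster assembly. Steap3 and Mfsd7c lie farthest to the right.

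The labelled cell type was checked on markers of ovarian surface epithelium and mesothelium. All 9 averaged 1 CPM or more, with Krt19 at 938 CPM, Wt1 at 153 CPM and Krt7 at 1.91 CPM, and their median log2 fold change was 0.00. Of these, Krt8 (1.30), Krt18 (1.32) and Upk3b (1.67) were called higher and Msln (0.628) lower. Krt8 and Krt18 also lie on chromosome 15, and their log2 values of 0.38 and 0.40 were below its median of 0.43. By itself Gm26924 made up 29.7% of the summed CPM in the table, and its fold change was 0.624, so CPM levels of all other genes depend in part on it.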

How the data were processed

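Stranded RNA-seq of size-fractionated, ribosome-depleted RNA was analysed from 2 ID8-P0 and 2 ID8-PW2 libraries. Per the labels and the methods, the authors used CASAVA 1.8.2 for demultiplexing, Trimmomatic 0.22 and fastx_clipper for trimming, mapped with TopHat2 2.0.6 and Bowtie2 2.0.2 to the mouse genome, counted reads per gene with scripts of their own allowing at most 2 mismatches, and ran edgeR 3.20.8. The labels name a human build, while identifiers are mouse, and 23382 of 23875 are in GENCODE M21. The edgeR test is not given in the sources used here.

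From the authors' deposited table came the fold change (a ratio, ID8-PW2 relative to ID8-P0), its log2 value and the mean log2 CPM, the p-value and FDR, and the dispersion, a score per gene whose square root is the BCV. The FDR matched a Benjamini-Hochberg adjustment over all genes within 1e-09 for 23875 of 23875. The table's 4 columns of counts match no label, so they were not used, depth per library is not given and no model was refitted. A column of calls was not used.

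A gene was called when its FDR was below 0.01 and its fold change was above 1.2 or below 0.83. Intervals are the log2 fold change ± its SE at 95%, the SE being the log2 fold change over the normal quantile of the p-value. CPM per kb used the union of exons in GENCODE M21 within the deposited start and end of the gene. The members and lists were chosen with earlier results of these data known. Named are all members, in each list up to 6 called genes and 2 not called, and the nearest expressed genes beside each member (at least 1 CPM). Also named are 3 genes closest in log2 fold change to the members that changed most, among genes reaching 10 CPM in either line. Fech, Fbxl5, Hamp2, Lcn2, Slc39a8, Gm26924 and the markers were named after their values were seen. The looser hairpin pattern was added after the data were seen. Older symbols were matched through RefSeq. Python 3.11.15, numpy 2.4.6, pandas 2.3.3, scipy 1.17.1 and matplotlib 3.10.9 were used, and the calling step was tested on simulated data. P-values set the difference between the lines against the spread between duplicates of each line.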

Additional observations from a re-analysis of the deposited data

How the results depend on the processing

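At an adjusted p under 0.05, 4 of the 10 iron genes were lower in place of 2, with Ftl1 (log2 fold change -0.28, adjusted p = 0.0499 from edgeR) and Aco1 (-0.35, 0.0393) added. At a fold change over 2 or under 0.5, 1 iron gene was lower, as Slc11a2 (-0.64) was no longer called, and the 5 lists had 2 genes higher and 0 lower in place of 11 and 8. Without a fold change threshold, and with p-values adjusted over the genes of at least 1 CPM only, every count of the iron genes was as reported, and the lists had 13 higher and 9 lower in the latter. Shares of all genes at these other settings were not computed, so these counts have no background beside them. Set against the median of all expressed genes or of the same chromosome, each iron gene kept its direction. Only the fold change was shifted there and the p-values stayed as deposited, so the calls, which were also kept, were largely fixed by this construction. DESeq2, other filters on counts, and leaving out a replicate were not run, since they need counts tied to samples. No paired analysis was possible because the columns carry no replicate numbers that match the labels. Depth per library is not known here. Gene levels near 1 CPM, such as those of Steap3 (1.06) and Mfsd7c (0.973) in ID8-P0, give fold changes of uncertain size.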

Other observations

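The nearest expressed gene on each side of the 10 iron genes gave 20 neighbours, overlapping or up to 4917 kb away. Of these, 4 were called higher, 2 lower and 14 not called, beside 14.4% higher and 11.7% lower among the 12214 genes. The higher ones include Gm20425, which is not taken as a separate observation from Trf. Besides Gm20425 and Dnah7b, the higher neighbours were Gys1, a glycogen synthase 1.32 kb from Ftl1 with a fold change of 1.85 (adjusted p = 8.72e-10 from edgeR), and Hykk, 4.75 kb from Ireb2 with 3.44 (adjusted p = 1.17e-09), and besides Wdr75 the lower one was Ddx58, the RNA sensor RIG-I, 5.43 kb from Aco1 with 0.736 (adjusted p = 0.00597). Gys1 and Hykk rose beside iron genes that were not called.

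Among 8425 genes reaching 10 CPM in either line, those with the log2 fold change closest to that of Trf (1.79) were Gm20425 (1.79), Hykk (1.78) and Camkk2 (1.78). Closest to Hp (-3.58) were Tnfrsf21 (-3.41), Fgf13 (-3.26) and Gm2373 (-3.13), so no gene at that level lay within 0.163 of Hp on the log2 scale. This likeness rests on a single difference between 2 groups. As Gm20425 shares exons with Trf, its closeness to Trf is not a separate observation.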
